A study of Homo sapiens with 6 samples.

Results

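The genes described here encode the proteins of the cytosolic ribosome. They were chosen by name: protein-coding genes with the symbol RPL or RPS, a number and at most 1 suffix letter A, X, Y or L, plus RPLP0, RPLP1, RPLP2, RPSA and FAU, without the RPS6 kinase genes and RPS27L. This gave 81 of the 58735 genes in the count table, 49 of the large subunit and 32 of the small subunit. Of these, 78 passed the filter on low counts. RPL10L and RPL39L were listed at 0 in all 6 libraries, and RPL3L had between 0 and 2 counts per library. RPL3L, RPL10L and RPL39L are copies known mainly from muscle or testis. In EZA replicates 1 and 2, 55 of the 78 mRNAs lay above all DMSO libraries, against 29.5% of all tested genes. In EZA replicate 3, 53 of the 78 lay below all DMSO libraries, against 42.7% of all tested genes. In 36 of the 78 both held, against 5.61% of all tested genes.

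The study used RKO, a human colorectal carcinoma cell line, and compared 3 libraries of cells exposed to EZA with 3 libraries of cells given DMSO, the solvent control. EZA is an abbreviation of the labels, which do not explain it; neither a dose nor a duration is stated in the sources used here. No genotype or other agent is given for either group, and all 6 libraries came from the same cell line. Polyadenylated RNA was sequenced without strand information. The series design describes the 3 libraries of a group as biological replicates, without saying how the cultures were kept apart.

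A cytosolic ribosome joins a small subunit, which reads the mRNA, to a large subunit, which forms peptide bonds, and each ribosomal protein other than those of the stalk is present in a single copy. Cells therefore make these proteins in matched amounts. Most of their mRNAs begin with a cytosine followed by a run of pyrimidines, the 5′ terminal oligopyrimidine (TOP) tract, through which the kinase mTORC1 and the protein LARP1 regulate their translation and stability. Translation elongation factors share this start.

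RefSeq promoter sequences (GRCh38.p14) were at hand for 64 of the 81 genes. The windows below run 5′ to 3′ from 10 bases before an annotated start to 20 bases from it, and capitals mark a tract of C followed by at least 4 pyrimidines that begins at the start itself. They are shown for genes on which the results turn: those that were highest or lowest in EZA and those that 1 library set apart. Where a gene had several annotated starts, the start with the longest tract was chosen, so the windows overstate how common tracts are.
RPL13A: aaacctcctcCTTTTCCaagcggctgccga
RPS9: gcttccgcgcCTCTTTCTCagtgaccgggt
RPS19: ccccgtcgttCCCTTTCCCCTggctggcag
RPLP0: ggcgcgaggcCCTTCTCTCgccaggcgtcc
RPS27: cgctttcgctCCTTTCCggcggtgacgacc
RPL39: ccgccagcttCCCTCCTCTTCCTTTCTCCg
RPL29: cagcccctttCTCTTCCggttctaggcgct
RPL27: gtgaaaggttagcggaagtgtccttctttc
RPS27A: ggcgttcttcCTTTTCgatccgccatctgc
RPL36A: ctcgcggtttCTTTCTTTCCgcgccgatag

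These windows lie at chr19:49487598-49487627 for RPL13A, chr19:54200848-54200877 for RPS9, chr19:41860245-41860274 for RPS19, chr1:153990752-153990781 for RPS27, chr17:42998409-42998438 for RPL27, chr2:55232678-55232707 for RPS27A and chrX:101391001-101391030 for RPL36A, all on the plus strand. Those on the minus strand lie at chr12:120201092-120201121 for RPLP0, chrX:119791611-119791640 for RPL39 and chr3:51995876-51995905 for RPL29. For several genes the RefSeq start lies inside the gene as GENCODE annotates it, since a gene can have several starts. RPL27 has no tract at any of its annotated RefSeq starts. RPL39 has the longest run among all the members with a tract, 19 pyrimidines, and the runs of the members with a tract had a median of 8. Of the 79 annotated starts of ribosomal protein genes, 47 (59.5%) carried a tract, against 4.07% of all 35116 starts in the table. Tracts were read on the strand that has the sequence of the mRNA. A match describes the letters at an annotated start, not a measured 5′ end.

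The libraries held 14070611 to 18840954 counts. EZA replicate 3 stood apart from the other 5. Mitochondrial genes took 0.203% of its counts, against 4.29% and 3.69% in EZA replicates 1 and 2 and 4.45% to 5.02% in the DMSO libraries. Counts of calls are therefore given with and without it; the part of this difference in the ribosomal protein values was not tested. In a bulk library, fewer cells with an mRNA and less of it per cell cannot be told apart. Levels are given in CPM, counts scaled to the normalised library size, or to the library total for the cell type markers here. Of 8 colon epithelial markers, KRT18 was at 108 to 138 CPM in every library and KRT8 at 15.9 to 33.4. CDX2 was at 11.4 to 21.2 and EPCAM at 6.32 to 8.30. CDH1 was at 0, and KRT20, VIL1 and LGALS4 were at 0 or below 0.1 CPM. Markers of leukocytes, endothelium and fibroblasts were at 0.64 CPM or less in every library.

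Ribosomal protein mRNAs filled a larger part of the library in EZA replicates 1 and 2. They took 9.13% (95% Wilson interval 9.12% to 9.15%), 10.5% (10.53% to 10.55%) and 7.96% (7.95% to 7.97%) of the counts in EZA replicates 1 to 3, against 8.03%, 7.92% and 7.81% in DMSO replicates 1 to 3. EZA replicates 1 and 2 lay above all DMSO libraries and EZA replicate 3 within the range of the DMSO libraries' values. With mitochondrial genes left out of the totals, the shares were 9.54%, 10.9% and 7.98% in EZA replicates 1 to 3, against 8.46%, 8.29% and 8.19% in DMSO, so that EZA replicate 3 lay below all DMSO libraries. The means were 9.21% ± 1.29 in EZA and 7.92% ± 0.112 in DMSO (SD, n = 3 each). These intervals cover counting error only, and a sum over these genes was not tested. The ratio of large-subunit to small-subunit counts was 1.79, 1.74 and 1.42 in EZA replicates 1 to 3, against 1.78, 1.76 and 1.78 in DMSO. EZA replicate 3 had the lowest ratio.

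With all 6 libraries, 8 of the 78 tested genes rose in EZA and 0 fell (edgeR quasi-likelihood test, adjusted p below 0.05 over 13503 genes). Over all genes tested, 9.89% were called higher and 7.82% lower, so the share of ribosomal protein genes called higher, 10.3%, was near the background. At an unadjusted p below 0.05, 15 were higher and 0 lower, against 18.0% and 16.6% of all genes, and DESeq2 called 14 higher and 0 lower, against 12.8% and 10.1%. Log2 fold changes of the 78 had a median of 0.11, against -0.01 over all genes. Fold changes of the 8 ran from 1.43 to 1.80. None of the 78 met the study's own threshold of an absolute log2 fold change of 1 with an unadjusted p below 0.05, which 3.77% of all genes passed as higher and 1.96% as lower. The count rested on single libraries: it was 0 without DMSO replicate 1, 2 or 3 (when 1.15%, 3.54% and 1.31% of all genes were called higher), 1 without EZA replicate 2 (6.79%) and 50 without EZA replicate 3. The median turned to -0.06 without EZA replicate 2.

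The 8 genes that rose were RPL13 and RPL13A of the large subunit and FAU, RPS2, RPS3, RPS9, RPS14 and RPS19 of the small subunit. RPL13A, a large-subunit protein also known to leave the ribosome and repress translation of inflammatory mRNAs after interferon gamma, had 3879, 4613 and 6557 CPM in EZA replicates 1 to 3, against 2757, 2892 and 2705 CPM in DMSO. Every EZA library lay above every DMSO library, and EZA replicate 3 was the highest. Its log2 fold change was 0.85 ± 0.21 (SE; edgeR adjusted p = 0.0275). RPL13 had 2519, 2928 and 3190 CPM in EZA, against 1779, 1963 and 1819 CPM in DMSO (log2 fold change 0.64 ± 0.15, edgeR adjusted p = 0.0264).

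Among the small-subunit genes, RPS2, RPS3 and RPS9 encode proteins around the channel through which mRNA enters the ribosome. RPS9 had 1457, 1778 and 2133 CPM in EZA, against 1035, 1197 and 1089 CPM in DMSO (log2 fold change 0.69 ± 0.17, edgeR adjusted p = 0.0296). RPS3 had 2700, 3221 and 3916 CPM in EZA, against 2007, 2316 and 2106 CPM in DMSO (0.61, edgeR adjusted p = 0.0432). The 3 EZA values of both genes stood above all 3 DMSO values. RPS2 had 3656, 4366 and 3938 CPM in EZA, against 2574, 2975 and 2707 CPM in DMSO (0.53, edgeR adjusted p = 0.0415).

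RPS19 and RPS14 are known from blood disorders: RPS19 is the gene most often mutated in Diamond-Blackfan anaemia, and loss of a copy of RPS14 contributes to the 5q minus syndrome. RPS19 had 1566, 1903 and 2415 CPM in EZA, against 1246, 1280 and 1213 CPM in DMSO (log2 fold change 0.65 ± 0.18, edgeR adjusted p = 0.0384). RPS14 had 1047, 1252 and 1504 CPM in EZA, against 845, 865.5 and 812.2 CPM in DMSO (0.59, edgeR adjusted p = 0.0388). Again no EZA value reached down into the DMSO range. FAU, which encodes RPS30 fused to a ubiquitin-like protein, had 319, 390 and 409 CPM in EZA, against 250.5, 278.5 and 255.6 CPM in DMSO (0.51 ± 0.14, edgeR adjusted p = 0.0361). In all, 18 of the 78 had every EZA library above every DMSO library and 1 had every EZA library below, against 21.0% and 21.7% of all genes tested.

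Without EZA replicate 3, 50 of the 78 genes rose in EZA and 1 fell, against 19.1% higher and 19.2% lower over all 13787 genes then tested (edgeR quasi-likelihood test, adjusted p below 0.05). All 8 genes called with 6 libraries were among the 50. The median log2 fold change was 0.32, against -0.01 over all genes, and 70 of the 78 were above 0. The changes were of moderate size: the 50 ranged from 1.20-fold to 1.55-fold. EZA replicates 1 and 2 both lay above all DMSO libraries in 55 genes and both below in 2, against 29.5% and 30.3% of all genes. EZA replicate 2 was higher than EZA replicate 1 in 77 of the 78, and this share was not counted over all genes. Median log2 differences from the DMSO mean were 0.21 and 0.44 in EZA replicates 1 and 2, against 0.0035 and -0.0123 over all genes. By subunit, 29 of 46 large-subunit genes rose and 1 fell, and 21 of 32 small-subunit genes rose.

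**Figure D1:**
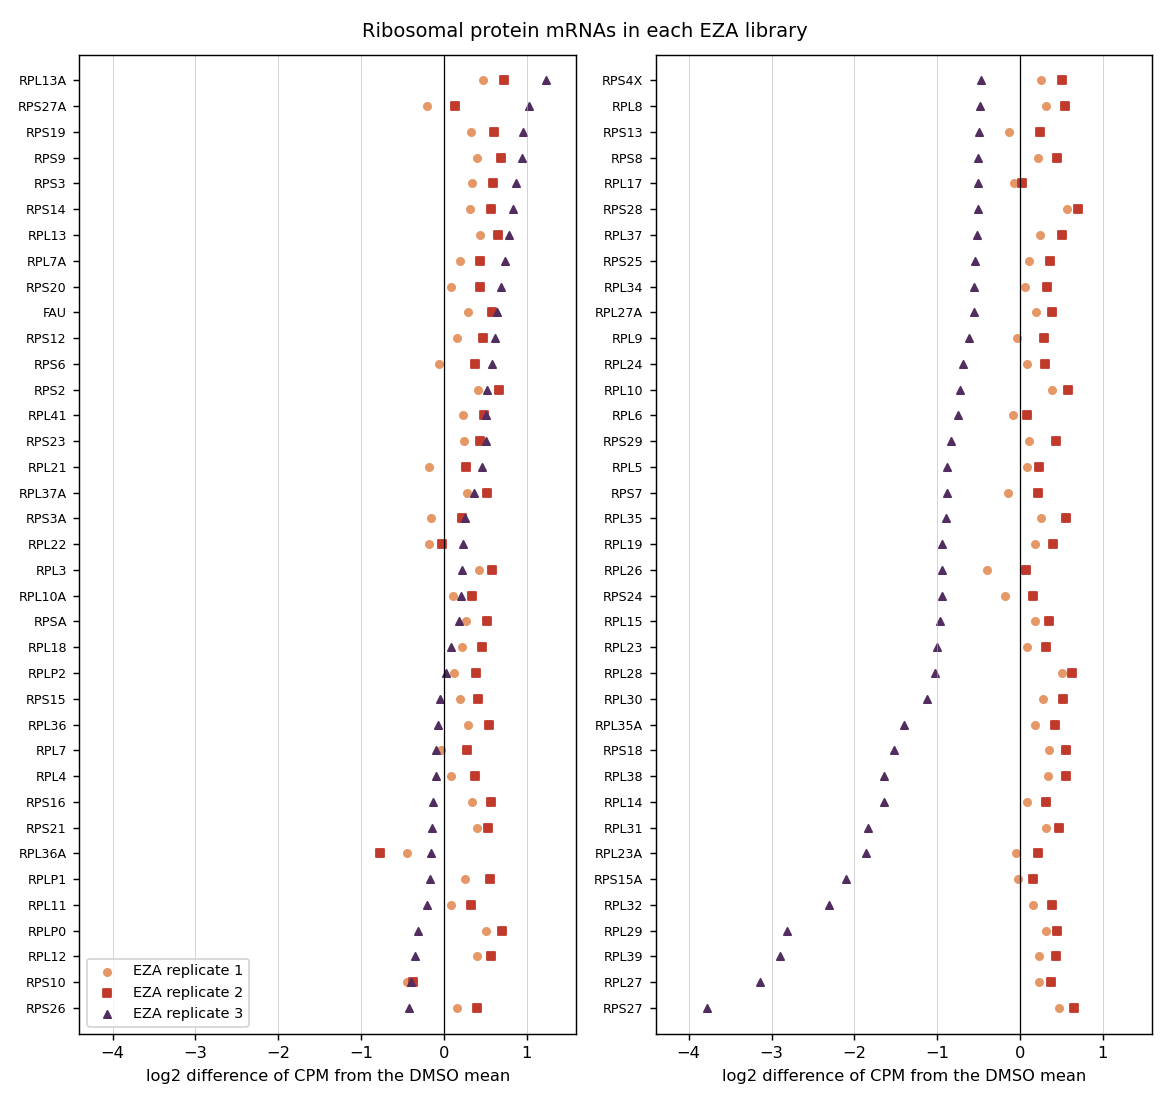
The log2 difference of CPM from the DMSO mean is plotted on the horizontal axis for the tested ribosomal protein genes named beside it, listed down the page in 2 columns in order of EZA replicate 3; circles, squares and triangles are EZA replicates 1, 2 and 3. Medians over all 78 tested genes are 0.21 and 0.44 in EZA replicates 1 and 2 and -0.44 in EZA replicate 3, where RPS27 and RPL27 lie lowest and RPL13A highest.

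The stalk of the large subunit, which recruits elongation factors, is built from RPLP0 and pairs of RPLP1 and RPLP2. RPLP0 had 4690, 5367 and 2653 CPM in EZA replicates 1 to 3, against 3362, 3317 and 3237 CPM in DMSO. EZA replicates 1 and 2 lay above the DMSO range and EZA replicate 3 below it. The log2 fold change was 0.61 ± 0.10 without EZA replicate 3 (edgeR adjusted p = 5.34e-06) and 0.36 ± 0.24 with all 6 libraries (edgeR adjusted p = 0.329). RPLP1 and RPLP2 rose too without EZA replicate 3, by 0.41 (edgeR adjusted p = 0.00169) and 0.26 (edgeR adjusted p = 0.0428) on the log2 scale, and with all 6 libraries had log2 fold changes of 0.24 and 0.19 (edgeR adjusted p = 0.394 and 0.386).

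Proteins close to the peptidyl transferase centre include RPL3, RPL8 and RPL10. RPL8 had the highest mean level of all members in the deposited FPKM, 1886, which the authors scaled by gene length. It had 4801, 5625 and 2751 CPM in EZA, against 3569, 4135 and 3871 CPM in DMSO. Again EZA replicate 3 alone was below the DMSO range. Without it RPL8 rose by 0.44 ± 0.10 on the log2 scale (edgeR adjusted p = 0.000738); with all 6 libraries the value was 0.19 (edgeR adjusted p = 0.627). With the GC and length trend described below also removed, its log2 fold change without EZA replicate 3 was -0.01 (edgeR adjusted p = 0.896). RPL3 and RPL10 rose by 0.51 (edgeR adjusted p = 8.07e-05) and 0.48 (edgeR adjusted p = 0.000217) without EZA replicate 3, and RPL28, another large-subunit protein, by 0.57 (edgeR adjusted p = 1.99e-05). None of the 3 passed with all 6 libraries, at log2 fold changes of 0.42 for RPL3, 0.18 for RPL10 and 0.21 for RPL28 (edgeR adjusted p = 0.0930, 0.692 and 0.716). EZA replicate 3 lay above the DMSO range for RPL3 (4039 CPM, against 3383 to 3585 CPM in DMSO) and below it for RPL10 (526.9 CPM, against 856.8 to 885.4) and RPL28 (475.8 CPM, against 921.8 to 1018). RPL10 shares 53.7% of its exon bases with other genes, so its counts are uncertain.

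RPL5 and RPL11 carry the 5S ribosomal RNA into the large subunit and, when unassembled, are known to bind the p53 inhibitor MDM2. Neither passed the test as measured. RPL5 had 1195, 1327 and 616.4 CPM in EZA, against 1177, 1090 and 1130 CPM in DMSO. RPL11 had 675.4, 802.2 and 554.8 CPM in EZA, against 651.4, 636.9 and 621.4 CPM in DMSO. With that library left out, their log2 fold changes were 0.16 ± 0.10 (edgeR adjusted p = 0.228) and 0.22 ± 0.10 (edgeR adjusted p = 0.0964), and with all 6 libraries -0.11 and 0.09 (edgeR adjusted p = 0.788 and 0.724). RPL5 was called higher once the GC and length trend was also removed.

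In the small subunit, RPS28 lies near the channel through which mRNA leaves. It had 236.7, 260.9 and 112.3 CPM in EZA, against 165.4, 161.3 and 154.2 CPM in DMSO, and its log2 fold change of 0.64 ± 0.10 without EZA replicate 3 was the largest of the 78 (edgeR adjusted p = 5.80e-06). With all 6 libraries it was 0.34 ± 0.27 (edgeR adjusted p = 0.394). RPS28 shares 27.4% of its exon bases with KANK3, so its counts are uncertain. RPSA, a small-subunit protein also called the laminin receptor, and RPS4X rose by 0.40 and 0.39 on the log2 scale without EZA replicate 3 (edgeR adjusted p = 0.00152 and 0.00234), and did not pass with all 6 libraries, at 0.33 and 0.15 (edgeR adjusted p = 0.157 and 0.677). RPS4X, the X-linked S4 gene, had 2655, 3161 and 1607 CPM in EZA, against 2282, 2209 and 2189 CPM in DMSO. RPS6, the small-subunit protein phosphorylated by the S6 kinases, did not pass as measured, at 0.18 ± 0.11 without EZA replicate 3 (edgeR adjusted p = 0.216) and 0.32 ± 0.18 with all 6 libraries (edgeR adjusted p = 0.243). It was called higher without EZA replicate 3 once the GC and length trend was also removed.

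RPL7A and RPS12, which with RPL8, RPL13A and RPS2 had the 5 highest mean FPKM, had their highest CPM in EZA replicate 3. RPL7A had 3946, 4668 and 5780 CPM in EZA, against 3657, 3393 and 3307 CPM in DMSO. RPS12 had 943.5, 1176 and 1302 CPM in EZA, against 912.6, 824.4 and 810 CPM in DMSO. All 3 EZA values exceeded all 3 DMSO values in both genes. They passed without EZA replicate 3 (log2 fold change 0.32 for each, edgeR adjusted p = 0.0108 and 0.0149) and not with all 6 libraries (0.47 and 0.43, edgeR adjusted p = 0.0926 and 0.0945).

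Of the 27 genes that did not pass without EZA replicate 3, 20 had a log2 fold change above 0, and the values of the 27 ran from -0.43 to 0.28. The one gene that fell was RPL36A, a large-subunit protein at the tRNA exit site. It had 4.32, 3.42 and 5.30 CPM in EZA, against 6.44, 5.30 and 6.07 CPM in DMSO (log2 fold change -0.62 ± 0.21 without EZA replicate 3, edgeR adjusted p = 0.0187; -0.46 ± 0.22 with all 6 libraries, edgeR adjusted p = 0.169). These were low counts: members below 100 CPM in DMSO included RPS10, RPL36A, RPL17 and RPL26, and per length their mean levels were 0.929, 1.28, 5.26 and 20.6 FPKM in that order, against 1886 FPKM for RPL8. In these 4, annotated exons overlap those of another gene, such as a readthrough transcript, over 84.0% of the exon bases of RPS10, 43.8% of RPL36A, 96.9% of RPL17 and 65.3% of RPL26. The part of this overlap in their values was not tested, and their counts are uncertain. Among the 66 members with less than 20% of their exon bases shared, 46 rose and 0 fell without EZA replicate 3.

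**Figure D2:**
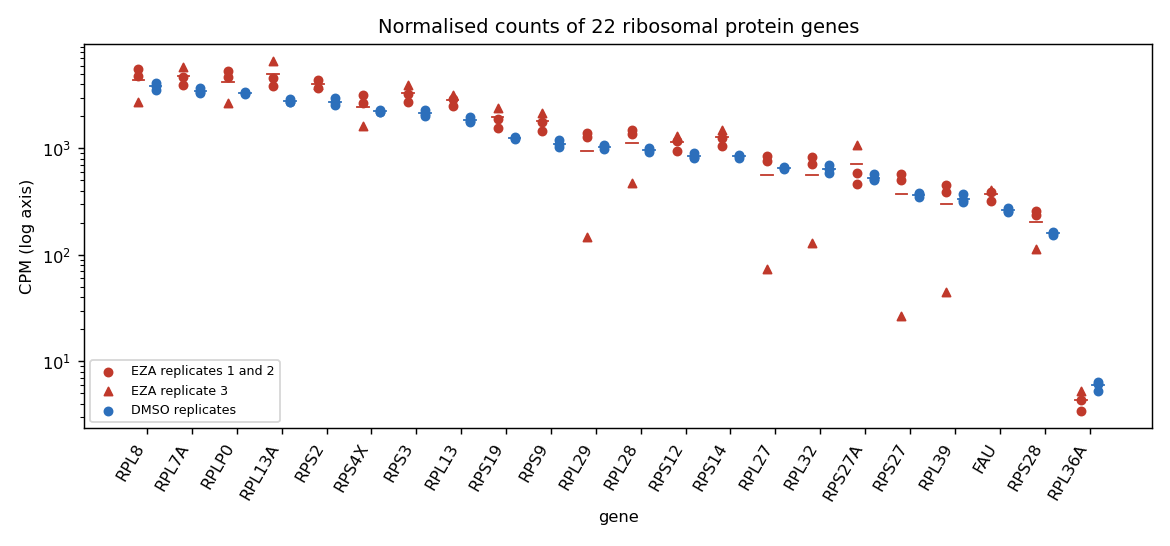
Normalised counts in CPM on a log axis are plotted for 22 ribosomal protein genes, each with its 3 EZA libraries on the left and its 3 DMSO libraries on the right; triangles are EZA replicate 3 and short bars are group means. The DMSO points of a gene lie close together, while EZA replicate 3 is far below the other EZA points for RPS27 (26.6 CPM), RPL27 (73.9 CPM), RPL39 (45.03 CPM), RPL29 (147 CPM) and RPL32 (129 CPM), and above them for RPS27A (1086 CPM).

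EZA replicate 3 lay below the DMSO libraries in most ribosomal protein mRNAs and above them in others. It was above all DMSO libraries in 23 of the 78, below all in 53 and within their range in 2, while over all tested genes 40.9% were above and 42.7% below. In 36 members EZA replicates 1 and 2 were above all DMSO libraries while EZA replicate 3 was below all, against 5.61% of all genes. Set against the mean CPM of EZA replicates 1 and 2, it was at least 4-fold lower in 10 of the 78 (12.8%), against 1.10% of all genes tested. It was at least 2-fold lower in 24, against 6.69%. It was at least 2-fold higher in 1, RPS27A, against 3.39%. The median difference was -0.74 on the log2 scale, -0.85 for the large subunit and -0.46 for the small subunit, against 0.04 over all genes. The median SD of log2 CPM among the 3 EZA libraries was 0.452 for the ribosomal protein genes and 0.261 over all genes. In DMSO it was 0.0729 for the ribosomal protein genes and 0.136 over all genes.

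RPS27, a zinc finger protein of the small subunit, showed the widest gap. It had 509.1, 575.5 and 26.6 CPM in EZA replicates 1 to 3, against 379.5, 349.4 and 370.6 CPM in DMSO. EZA replicate 3 was 20.3-fold below the other EZA libraries (-4.34 on the log2 scale), which both lay above the DMSO range. The log2 fold change was 0.02 ± 0.88 with all 6 libraries (edgeR adjusted p = 0.993) and 0.57 ± 0.10 without EZA replicate 3 (edgeR adjusted p = 3.27e-05).

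The next 4 genes in this order belong to the large subunit. RPL27 had 765.1, 848 and 73.9 CPM in EZA, against 644.2, 649 and 662.3 CPM in DMSO. RPL39, which lines the tunnel through which the new peptide leaves, had 392.3, 454.5 and 45.03 CPM in EZA, against 369.9, 314.1 and 324.1 CPM in DMSO. In both genes EZA replicates 1 and 2 lay above all DMSO values and EZA replicate 3 far below them. RPL29 had 1282, 1407 and 146.7 CPM in EZA, against 1066, 1050 and 984.5 CPM in DMSO. RPL32 had 712, 836.8 and 128.8 CPM in EZA, against 699.8, 589.3 and 634.5 CPM in DMSO. EZA replicate 3 was 10.9-fold, 9.38-fold, 9.16-fold and 6.01-fold below the other EZA libraries for RPL27, RPL39, RPL29 and RPL32. With all 6 libraries none of the 4 passed; without EZA replicate 3 all 4 rose, by 0.31, 0.34, 0.38 and 0.27 on the log2 scale (edgeR adjusted p = 0.0145, 0.0119, 0.00259 and 0.0377). Other genes that were at least 4-fold lower included RPL31, RPL38 and RPS15A. RPL38 shares 59.0% of its exon bases with another gene, so its counts are uncertain.

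At the other end stood RPS27A, which encodes ubiquitin fused to a small-subunit protein. It had 460.4, 582 and 1086 CPM in EZA, against 578.3, 514.2 and 502.7 CPM in DMSO. EZA replicates 1 and 2 lay on either side of the DMSO values, and EZA replicate 3 was 1.06 log2 units above them. It did not pass with all 6 libraries (log2 fold change 0.42 ± 0.28, edgeR adjusted p = 0.33) or without EZA replicate 3 (-0.03 ± 0.11, edgeR adjusted p = 0.875). RPS27A shares 31.7% of its exon bases with another gene, so its counts are uncertain. RPL13A and RPS19 followed, 0.63 and 0.48 log2 units above the other EZA libraries. RPS27 and RPS27A both carry a TOP tract at an annotated start, as the windows above show.

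Length was compared because ribosomal protein mRNAs are short. Among members with a canonical transcript of at most 600 bases, the median log2 difference of EZA replicate 3 from the other EZA libraries was -0.79 (23 genes), against -0.35 in 120 other nuclear protein-coding genes of that length. It was -0.49 (19 genes), against -0.19, above 600 and up to 900 bases. Above 900 and up to 1500 bases it was -0.74 (19 genes), against -0.08, and above 1500 and up to 3000 bases -0.18 (12 genes), against -0.03. Above 3000 bases it was -0.89 (5 genes), against 0.09. By canonical transcript the members' medians lay below those of other genes in every range, and they did not climb with length as the medians of other genes did. The 5 members above 3000 bases had only 291 (RPL37) to 645 (RPL14) coding bases. Across genes, Spearman's rho between the difference of EZA replicate 3 and canonical length was 0.0485 in the 78 members and 0.16 in 11339 other genes. Over the longest transcript it was -0.032 and 0.154, and over the length implied by the deposited FPKM -0.037 and 0.137. Members of at most 900 bases numbered 42 by canonical transcript, 7 by longest transcript, 4 by FPKM-implied length and 75 by coding length. FPKM-implied lengths were scaled so that their median over tested genes equalled that of the longest transcripts, and the count of 4 depends on this scale. Genes of a library share its preparation and are not independent replicates.

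The coding sequence gives another measure, since canonical transcripts of some members carry long untranslated stretches. Over coding length, rho was 0.207 in members and 0.202 in other genes. Members with at most 300 coding bases had a median of -1.12 (9 genes), against -0.16 in other genes of that length, and those with over 600 and up to 900 coding bases had -0.22 (19 genes), against -0.06. Above 900 coding bases the median was -0.33 (3 genes), against 0.08. All 10 members that were at least 4-fold lower had coding sequences of at most 600 bases, as did 56 of the 78 members. Without EZA replicate 3, 13 of 23 members rose at up to 600 bases of canonical transcript, against 31.7% of other genes of that length. Above 600 and up to 900 bases it was 12 of 19, against 37.4%, and up to 1500 bases 13 of 19, against 33.6%. Up to 3000 bases 8 of 12 rose, against 28.4%, and above 3000 bases 4 of 5, against 13.9%.

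**Figure D3:**
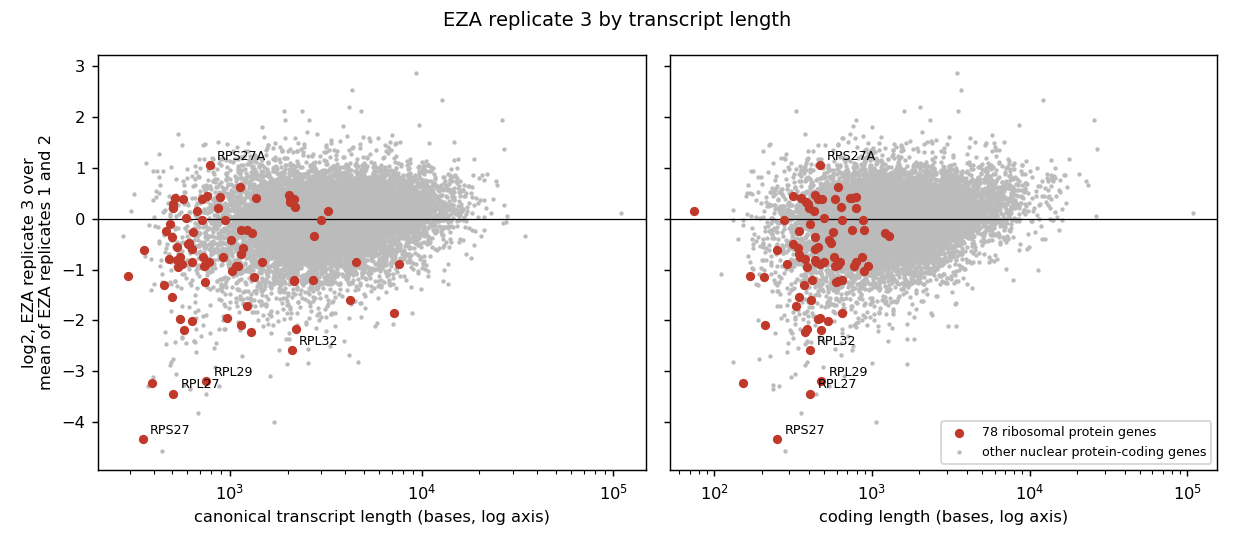
The log2 ratio of EZA replicate 3 to the mean of EZA replicates 1 and 2 is plotted on the vertical axis for 78 ribosomal protein genes (red) and other nuclear protein-coding genes (grey), against canonical transcript length on the left and coding length on the right, both on log axes. The red points spread from -4.34 (RPS27) to 1.06 (RPS27A) at similar lengths.

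The change seen in EZA replicates 1 and 2 went with GC content. Without EZA replicate 3, all 14 members with a transcript GC content above 55% rose, against 41.5% of the other genes in that range. From 50% to 55% GC, 14 of 16 rose, against 24%. From 45% to 50%, 13 of 24 rose, against 14.6%, and at 45% or less 9 of 24 rose and 1 fell, against 5.79% higher. In each range a larger part of the ribosomal protein genes was called higher than of other genes, and that part grew with GC content in both. Spearman's rho between the log2 fold change and GC content was 0.618 across the 78 members and 0.527 across 11339 other genes, all read from the same 5 libraries.

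With the trend of GC content and length removed from each library and EZA replicate 3 left out, 51 members rose and 0 fell, against 20.2% higher and 18.4% lower over all genes (edgeR quasi-likelihood test). Of these 51, 40 were also among the 50 called without the removal. The 10 no longer called included RPL7A, RPL8, RPL18, RPL19, RPL29, RPL35, RPL36, RPLP2 and RPS15. The 11 gained were RPL4, RPL5, RPL7, RPL9, RPL14, RPL23, RPL24, RPL34, RPS6, RPS25 and RPS29, and RPL36A no longer passed as lower (edgeR adjusted p = 0.0525). GC-rich members moved most: without EZA replicate 3 the log2 fold changes of RPS2, RPS9, FAU and RPS19 were 0.55, 0.55, 0.44 and 0.48 as measured and 0.19, 0.22, 0.21 and 0.26 with the trend removed. The median log2 fold change was then 0.26, against -0.0037 over all genes. With all 6 libraries and the trend removed, 2 members rose, RPL37A and RPS23, and 0 fell, against 6.57% and 4.82% of all genes; neither is among the 8.

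**Figure D4:**
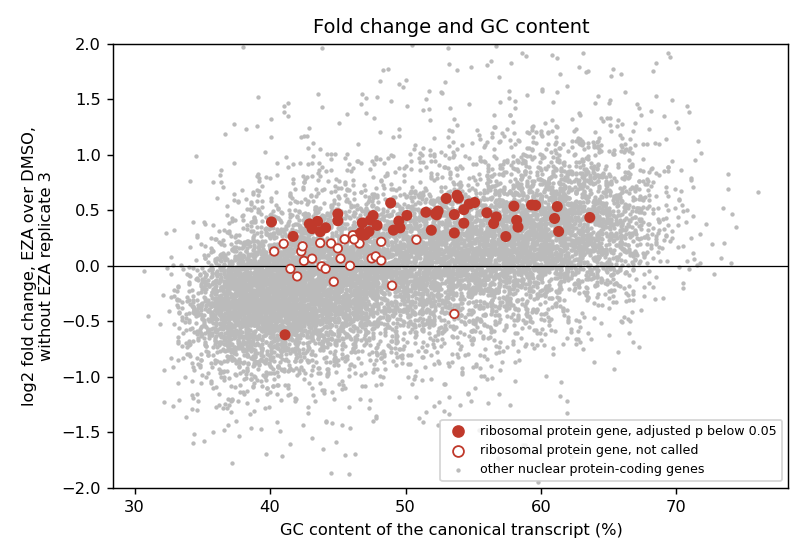
The log2 fold change of EZA over DMSO without EZA replicate 3 is plotted against the GC content of the canonical transcript for 78 ribosomal protein genes (red, filled where the adjusted p is below 0.05) and other nuclear protein-coding genes (grey); the vertical axis is limited to values from -2 to 2. Filled points fill the right side, where all 14 members above 55% GC were called higher, and open points lie mainly at 50% or less.

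Without EZA replicate 3, genes that rose were found both with and without a TOP tract. Among the 47 tested members with a tract at an annotated start, 32 rose without EZA replicate 3 (median log2 fold change 0.36; 19.1% of all genes were called higher). Among 16 with RefSeq starts but no tract, 9 rose (median 0.28). With all 6 libraries, 7 of the 47 and 0 of the 16 rose, against 9.89% of all genes. EZA replicate 3 was at least 4-fold lower in 5 of the 47 and in 2 of the 16, against 1.10% of all genes, with median differences of -0.49 and -0.80. No test was made between these groups of genes.

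Other genes that act with the ribosome were read from the same fits, and their counts too rested on single libraries: without any 1 of the DMSO replicates no gene of the lists below was called, other than 2 lower genes of ribosome biogenesis without DMSO replicate 2. Of 27 tested translation factors and other mRNAs known to begin with a TOP tract, 1 rose (EEF1D) and 1 fell (IPO7) with all 6 libraries, and 9 rose and 4 fell without EZA replicate 3. Over all genes these shares were 9.89% higher and 7.82% lower with all 6 libraries and 19.1% and 19.2% without EZA replicate 3, which also hold for the lists that follow. EEF2, the factor that moves the ribosome along the mRNA, had 10081, 10613 and 7122 CPM in EZA, against 5523, 6486 and 6040 CPM in DMSO. Every EZA library lay above every DMSO library, with a log2 fold change of 0.78 ± 0.10 without EZA replicate 3 (edgeR adjusted p = 3.87e-08) and 0.62 ± 0.19 with it (edgeR adjusted p = 0.0520). RACK1, a scaffold on the small subunit, rose by 0.52 without EZA replicate 3 (edgeR adjusted p = 6.79e-05) and did not pass with it (0.35, edgeR adjusted p = 0.230), EZA replicate 3 lying at 1515 CPM, below the 1568 to 1634 CPM of the DMSO libraries. IPO7, a nuclear import receptor that carries ribosomal proteins, had 174.7, 165.8 and 166.6 CPM in EZA, against 252.3, 206.6 and 235.9 CPM in DMSO (log2 fold change -0.45 ± 0.12 with all 6 libraries, edgeR adjusted p = 0.0363).

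Among genes that build ribosomes, calls of lower genes outnumbered those of higher genes. Of 42 genes of ribosome biogenesis and RNA polymerase I, 0 rose and 7 fell with all 6 libraries, and 6 rose and 15 fell without EZA replicate 3, against 19.1% and 19.2% of all genes; the median log2 fold changes were -0.13 and -0.18. At an unadjusted p below 0.05, 2 were higher and 12 lower with all 6 libraries, against 18.0% and 16.6% of all genes. UTP20, which processes the small-subunit RNA precursor, had 59.4, 47.1 and 64.3 CPM in EZA, against 101.5, 99.5 and 99.4 CPM in DMSO (log2 fold change -0.82 ± 0.14, edgeR adjusted p = 0.00989). LTV1, an assembly factor of the small subunit, had 13.3, 13.1 and 14.1 CPM in EZA, against 26.8, 21.9 and 23.1 CPM in DMSO (-0.82 ± 0.14, edgeR adjusted p = 0.00929). In both genes EZA replicate 3 lay beside EZA replicates 1 and 2, well below DMSO. MYC, a transcription factor that drives ribosome production, and NOB1, an endonuclease that finishes the small-subunit RNA, rose by 0.53 and 0.46 without EZA replicate 3 (edgeR adjusted p = 6.48e-05 and 0.000811) and did not pass with it (edgeR adjusted p = 0.202 and 0.252).

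Among dedicated escorts of ribosomal proteins, BCCIP, which accompanies RPL23 in the cell, fell with all 6 libraries (72.7, 79.3 and 90.0 CPM in EZA, against 136.6, 118.7 and 121.8 CPM in DMSO; log2 fold change -0.64 ± 0.13, edgeR adjusted p = 0.0157). The other 5 of the 6 did not pass with 6 libraries, and TSR2, the escort of RPS26, rose without EZA replicate 3 (0.35, edgeR adjusted p = 0.0125; 0.52 with all 6 libraries, edgeR adjusted p = 0.0537). Of 5 paralogs outside the naming rule, 0 rose and 0 fell in either fit with edgeR, and 0 were past an unadjusted p of 0.05 with 6 libraries. EZA replicate 3 was again lower than the other EZA libraries in RPL22L1, RPL26L1 and RPS27L, by -1.98, -2.10 and -1.30 on the log2 scale, and close to them in RPL36AL and RPL7L1 (0.04 and -0.05).

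Few genes of the mitochondrial ribosome, whose proteins are encoded in the nucleus, passed the test. Of 77 tested, 1 rose (MRPL24) and 1 fell (MRPL42) with all 6 libraries, and of 78 tested without EZA replicate 3, 7 rose and 6 fell, against 19.1% and 19.2% of all genes, with a median log2 fold change of 0.07. MRPL24 had 83.0, 99.3 and 85.9 CPM in EZA, against 61.2, 72.2 and 62 CPM in DMSO (log2 fold change 0.46, edgeR adjusted p = 0.0455). MRPL42 had 53.0, 61.0 and 41.5 CPM in EZA, against 92.7, 72.5 and 83.8 CPM in DMSO (-0.68, edgeR adjusted p = 0.0296). EZA replicate 3 was at least 4-fold lower than the other EZA libraries in 1 of the 77, with a median difference of -0.27. The differences between these lists were not tested.

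**Figure D5:**
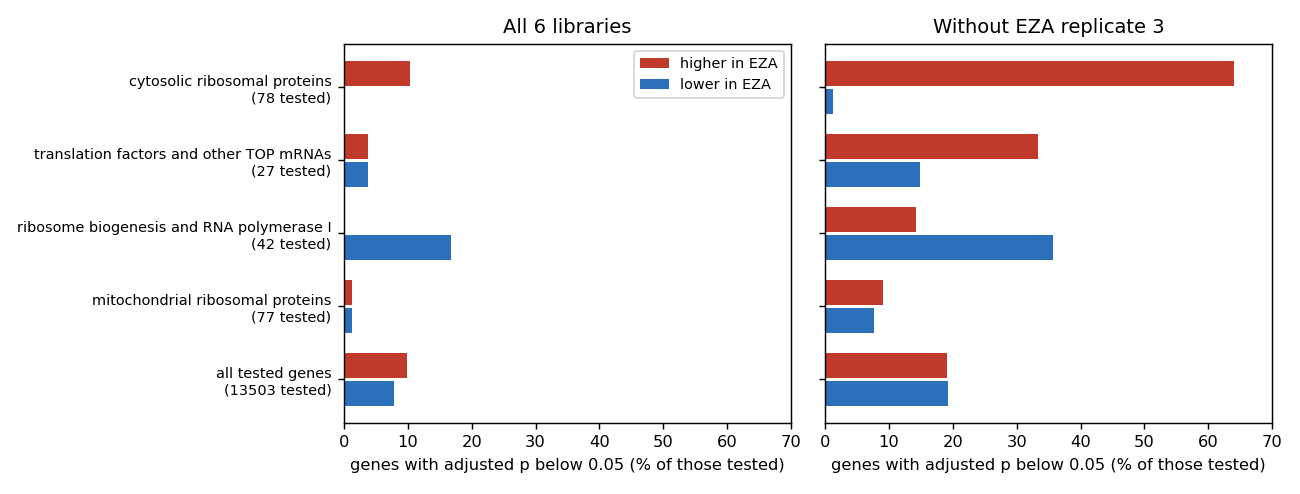
Bars give the percentage of tested genes called higher (red) and lower (blue) in EZA than in DMSO for 4 gene lists and for all genes, with all 6 libraries on the left and without EZA replicate 3 on the right; the numbers tested beside the names are those with all 6 libraries. The bar of higher cytosolic ribosomal protein genes is at 10.3% on the left, near that of all genes at 9.89%, and at 64.1% on the right, against 19.1%.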

How the data were processed

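Polyadenylated RNA of RKO cells was made into unstranded NEBNext Ultra libraries, per the labels' protocols. The deposited table holds a raw count and an FPKM value for each gene and library. Tools named in the submitters' processing notes are HISAT2, featureCounts, FastQC and DESeq2, with GRCh38 (hg38) as the build. The annotation, tool versions and settings are not given in the sources used. FPKM values, which the authors scaled by gene length and depth, served to give levels between genes and, in alternatives, library totals and gene lengths.

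Counts were tested with edgeR 4.0.16 in R 4.3.3 (TMM normalization, filterByExpr, robust quasi-likelihood F test, two-sided, Benjamini-Hochberg adjustment over all tested genes, called below 0.05). CPM uses TMM-scaled library sizes, other than for the cell type markers, whose CPM use library totals. Differences of single libraries use log2 CPM with a prior count of 2. The tested genes held 99.85% of all counts. Gene type, length, GC content and exon overlap came from GENCODE 44, which matched 58207 of 58735 genes, and starts from RefSeq. A trend with GC content and length was removed, where stated, by lowess with a span of 0.3. The test script was checked on simulated counts.

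The members and lists were chosen with earlier results of these data known. Named genes were the 5 with the highest mean FPKM and up to 5 called in each direction with the smallest adjusted p, with and without EZA replicate 3. Also named were the 5 lowest and 3 highest in EZA replicate 3 and the member with the suffix X. From other lists up to 2 in each direction were named. The remaining named members (RPS3, RPS14, RPS6, RPL3, RPL5, RPL10, RPL11, RPSA, RPLP1 and RPLP2) were added for their role or to complete a count, after their values were seen. P-values set the difference between the groups against the spread between these libraries. Replicates of a group differed from each other by more than sampling noise, at a chi-square of at least 4.75 times its degrees of freedom. Pseudogenes of these genes, processed or unprocessed, held 3.99 to 4.17 counts per 100 member counts in every library. How reads shared with them were counted is not given. Values of some single genes are not reported here.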

Additional observations from a re-analysis of the deposited data

How the results depend on the processing

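The number of ribosomal protein genes called higher, 8 with all 6 libraries, ranged from 0 to 50 when single libraries were left out, and the number called lower from 0 to 1; over all genes these ranges were 158 to 2640 higher and 62 to 2649 lower. With all 6 libraries it was 3 with library size alone, 14 with DESeq2, 31 (and 1 lower) with limma-voom sample weights, 2 after removal of the GC and length trend and 4 with the GC trend alone, an alternative added after seeing the data. Without EZA replicate 3 it was 51 with that GC and length removal, 54 with the GC trend alone, 42 (1 lower) with library size alone, 51 (1 lower) with DESeq2's size factors and 50 with DESeq2. The median over members stayed above 0 in every alternative other than the one without EZA replicate 2. Over all genes, 2825 rose and 2936 fell with sample weights, 887 and 651 after removal of the GC and length trend, and 795 and 584 with the GC trend alone. With EZA replicate 3 left out these were 2787 and 2542, 2604 and 2329 with the 2 trend removals, 2102 and 3160 with library size alone, 2722 and 2584 with DESeq2's size factors and 2319 and 2202 with DESeq2.

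Deviations of same-numbered libraries from their group means correlated at 0.0327, -0.175 and 0.0266. With 3 libraries per group and EZA replicate 3 apart from the rest, these values cannot decide whether replicate numbers pair the libraries. With the replicate block 2 members were higher, and 22 without EZA replicate 3; over all genes 1133 were higher and 837 lower, and 1446 and 1369 without EZA replicate 3. The block left 0 higher and 2 lower mitochondrial ribosomal protein genes and 0 in either direction of the translation factors and other TOP mRNAs, and gave RPS27 a log2 fold change of -0.64.

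In the other lists, leaving out single libraries gave 0 to 7 higher and 0 to 6 lower mitochondrial ribosomal protein genes, 0 to 9 and 0 to 4 translation genes, 0 to 6 and 0 to 15 biogenesis genes and 0 to 1 escorts in each direction. Library size alone gave 0 higher and 3 lower mitochondrial ribosomal protein genes and 0 higher translation genes. Removing the trend of GC content and length, 2 translation genes were higher and 0 lower, and 0 escorts and 0 mitochondrial ribosomal protein genes were lower.

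With counts outside mitochondrial genes as the denominator, members took 9.49% in EZA and 8.31% in DMSO. Directions of single genes turned as follows (log2 fold changes). RPL8 was at -0.28 and -0.21 with the GC and length or the GC trend removed, and at -0.013 with GC and length removed and EZA replicate 3 left out. RPS27 was at -0.048 with library size alone and -0.89 with limma-voom. With limma-voom sample weights RPL27, RPL39, RPL29 and RPL32 were at 0.092, 0.16, 0.23 and 0.11. Leaving out single libraries gave ranges of -0.63 to 0.31 for RPL27, -0.62 to 0.34 for RPL39, -0.53 to 0.38 for RPL29, -0.61 to 0.27 for RPL32, -0.45 to 0.57 for RPS27, -0.027 to 0.65 for RPS27A, -0.029 to 0.44 for RPL8, -0.061 to 0.57 for RPL28 and -0.061 to 0.39 for RPS4X. Without EZA replicate 3, in the order GC and length removed, GC alone removed, library size alone, DESeq2's size factors, DESeq2 and replicate block, RPL27 was at 0.29, 0.35, 0.24, 0.32, 0.32 and 0.32, RPL39 at 0.45, 0.49, 0.27, 0.34, 0.34 and 0.31, RPL29 at 0.13, 0.21, 0.32, 0.39, 0.39 and 0.35, and RPL32 at 0.29, 0.34, 0.21, 0.28, 0.28 and 0.27. RPS27A was then at -0.094 with library size alone, -0.017 with DESeq2's size factors and with DESeq2, and -0.073 with the replicate block. The causes of these differences were not tested.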
